A study of Mus musculus with 45 samples.

Results

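Embryoid bodies (EBs) formed in serum were compared with cells grown in Fgf2 and Activin A (FA) at days 5 and 7 of differentiation, using every EB and FA library of these days. These are 4 EB libraries and 3 FA libraries of the 45 in the series, and all 35372 counted genes were used. All libraries come from male wild-type E14tg2a mouse embryonic stem cells (ESCs), kept before differentiation in 2iL (N2B27 with CHIR99021, PD0325901 and LIF) or in SL (serum and LIF). EBs were left to aggregate in suspension in serum medium without LIF. FA cells, which the sample titles call EpiSC, were grown attached to gelatin in N2B27 with Fgf2 and Activin A. Thus the conditions differ in serum, in added factors and in attachment at the same time, and these cannot be told apart. The EB libraries are 2iL day 5, 2iL day 7, SL day 5 and SL day 7, and the FA libraries are 2iL day 7, SL day 5 and SL day 7. The 45 libraries hold none of 2iL day 5 in FA. Each medium and day has 1 library, so the media and the days, fitted with day as a covariate, stand in for replicates, and p-values measure the spread between these cultures of 1 cell line.

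Serum EBs are a classic way to let ESCs form tissues of all germ layers without a directing factor. Within them, Wnt, BMP and Nodal signals made by the cells themselves can start a primitive streak programme, in which Brachyury (T), Eomes and Mixl1 come on before mesoderm, blood and heart genes. Fgf2 and Activin A are the factors in which epiblast stem cells, the counterpart of the postimplantation epiblast, are kept. Activin binds the same receptors as Nodal, and Lefty1 and Lefty2 are feedback inhibitors that this pathway turns on. Attached cells also form stress fibres, and actin tension activates SRF and YAP with TEAD, whose targets include smooth muscle actin (Acta2) and Ctgf.

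The sequences just upstream of a few genes of the main FA-high groups are shown here because the cholesterol list held the most called members of the 27 lists and the serum response list 8. They are the 250 bases before the annotated start from RefSeq on GRCm38.p6, 5′ to 3′ in the direction of the gene. Capitals mark matches on either strand to CCAAT, and in Hmgcs1 also to TCACCCCAC, the core of a sterol response element.
Hmgcs1 (chr13:119690101-119690350, plus strand): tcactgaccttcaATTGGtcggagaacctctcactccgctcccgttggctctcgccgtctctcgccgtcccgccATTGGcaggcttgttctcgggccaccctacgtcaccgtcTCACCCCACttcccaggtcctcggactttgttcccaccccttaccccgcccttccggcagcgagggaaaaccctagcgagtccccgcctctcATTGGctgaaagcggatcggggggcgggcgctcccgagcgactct
Msmo1 (chr8:64733579-64733828, minus strand): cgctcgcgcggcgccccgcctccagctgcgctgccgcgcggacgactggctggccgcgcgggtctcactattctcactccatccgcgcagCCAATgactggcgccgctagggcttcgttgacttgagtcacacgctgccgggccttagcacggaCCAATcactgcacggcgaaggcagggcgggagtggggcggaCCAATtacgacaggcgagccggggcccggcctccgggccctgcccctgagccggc
Insig1 (chr5:28071162-28071411, plus strand): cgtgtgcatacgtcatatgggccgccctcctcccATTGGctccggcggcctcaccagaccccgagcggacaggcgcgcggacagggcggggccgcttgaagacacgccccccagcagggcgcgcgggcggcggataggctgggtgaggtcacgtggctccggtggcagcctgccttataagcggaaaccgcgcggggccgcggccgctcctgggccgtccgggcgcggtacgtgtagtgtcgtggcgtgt

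In the serum response genes Vcl, which encodes the adhesion protein vinculin, and Acta2, capitals mark CATTCC, bound by TEAD factors. In Vcl they also mark an exact CArG box, the site of SRF.
Vcl (chr14:20929148-20929397, plus strand): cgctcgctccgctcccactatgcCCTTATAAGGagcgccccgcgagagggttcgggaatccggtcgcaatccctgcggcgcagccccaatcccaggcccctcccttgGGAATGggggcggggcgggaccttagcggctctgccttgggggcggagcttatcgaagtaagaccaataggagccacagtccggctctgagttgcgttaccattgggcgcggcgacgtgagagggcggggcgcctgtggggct
Acta2 (chr19:34255374-34255623, minus strand): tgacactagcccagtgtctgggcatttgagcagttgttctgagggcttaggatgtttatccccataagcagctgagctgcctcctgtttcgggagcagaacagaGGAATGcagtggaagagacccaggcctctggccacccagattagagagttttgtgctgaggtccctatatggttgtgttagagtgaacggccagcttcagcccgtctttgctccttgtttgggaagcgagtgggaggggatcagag

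Hmgcs1 held CCAAT 3 times, beginning 237, 176 and 45 bases before the start, and Msmo1 held it 3 times, at 160, 96 and 55 bases. CCAAT was found in the window of 16 of the 17 tested cholesterol genes that have a window in the table, against 40.8% of the 10574 tested genes with a window. TCACCCCAC was found in 1 of the 17, Hmgcs1, and in 0.709% of tested genes. Only this exact sequence was searched, so variant forms of the element were not counted. Of 22 tested serum response genes with a window, 10 held CATTCC, against 13.1% of tested genes, and 6 held a CArG box, against 1.48%. Among called members with a window, CCAAT was in 7 of 8 cholesterol genes. In called serum response genes, CATTCC was in 3 of 3 and a CArG box in 1 of 3. A CArG box was counted only as an exact match to CC, 6 bases of A or T, and GG. Boxes with other bases, such as near matches in the Acta2 window, were not counted. CATTCC was also in 5 of 21 matrix genes. CTTTGAT, a TCF site, was in 3 of 20 Wnt and 2 of 18 streak genes, against 2.69%. Each share describes a list of genes picked by function, and not the difference between EB and FA. The searches covered both strands, the matches marked in 1 window do not overlap each other, and a match is a description of the sequence and not a site shown to be bound.

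Genes differed between EB and FA in both directions, and more of them were higher in FA. After the filter on low counts, 14637 genes were tested with edgeR's quasi-likelihood test, and 492 genes (3.36%) passed an adjusted p of 0.05. Of these, 175 (1.20%) were higher in EB and 317 (2.17%) were higher in FA. The median log2 fold change over all tested genes was 0.01, near the 0 at which TMM scaling centres it. The libraries of the conditions did not overlap for 1276 tested genes higher in EB (8.72%) and 1302 higher in FA (8.90%), and these shares are the background for every count below. Called differences of at least 2-fold were found for 88 genes higher in EB and 233 higher in FA.

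**Figure D1:**
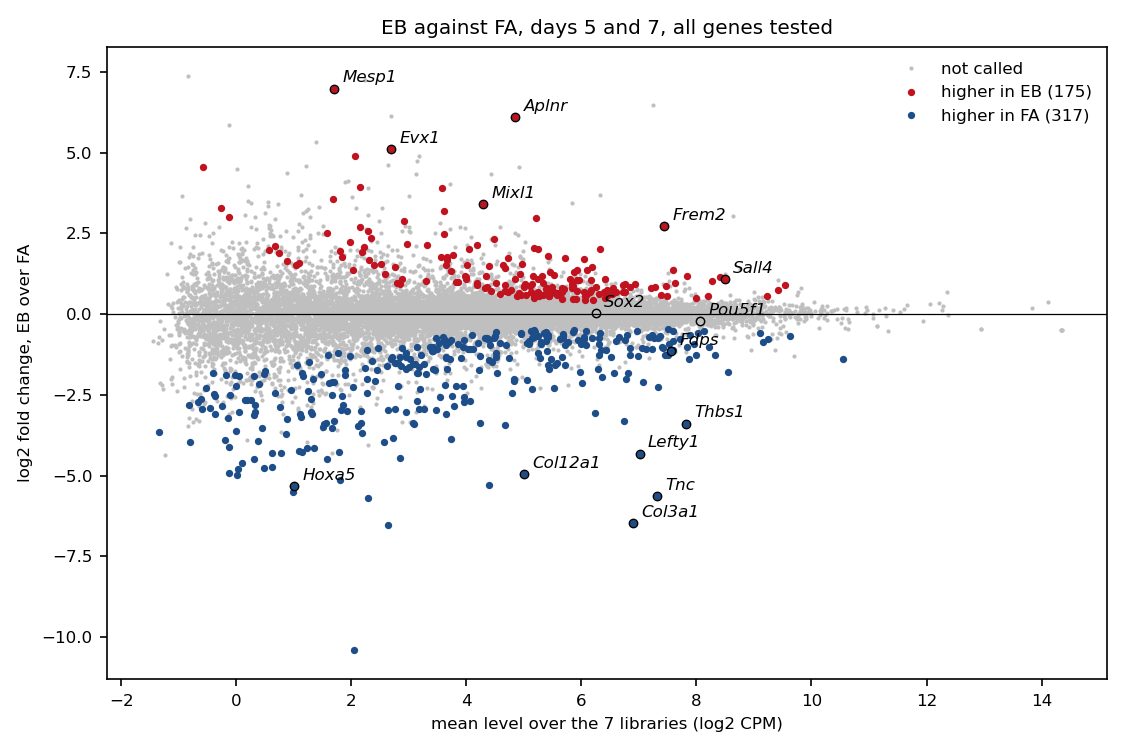
Log2 fold change of EB over FA (y axis) against mean level in log2 CPM (x axis) for the 14637 tested genes, with called genes in colour (175 higher in EB in red, 317 higher in FA in blue). The lowest point, at -10.41, is C1qtnf3, which had no read in any EB library, so that its fitted value depends on the fit's prior count and is no estimate of size.

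The depth was 14499396 to 39804240 reads on genes per library, and the 2iL EB libraries were the deepest, with 37563672 and 39804240 reads against at most 20169493 in the others. Levels are given as CPM, counts relative to the TMM-scaled size of the library, and 3 reads correspond to 0.0754 to 0.207 CPM. The root mean square log2 difference between libraries was 0.58 to 0.94 within EB, 0.61 to 0.86 within FA and 0.81 to 1.07 between EB and FA. The first principal component (36.9% of the variance) put the 4 EB libraries at 10.7 to 55.2 and the 3 FA libraries at -56.0 to -32.7. Of the 492 called genes, 32 were also called in each of the 7 fits that left out 1 library, 109 were called in none of these, and none changed sign. With starting medium and day as blocks, which leaves few degrees of freedom, 22 of the 492 were called.

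**Figure D2:**
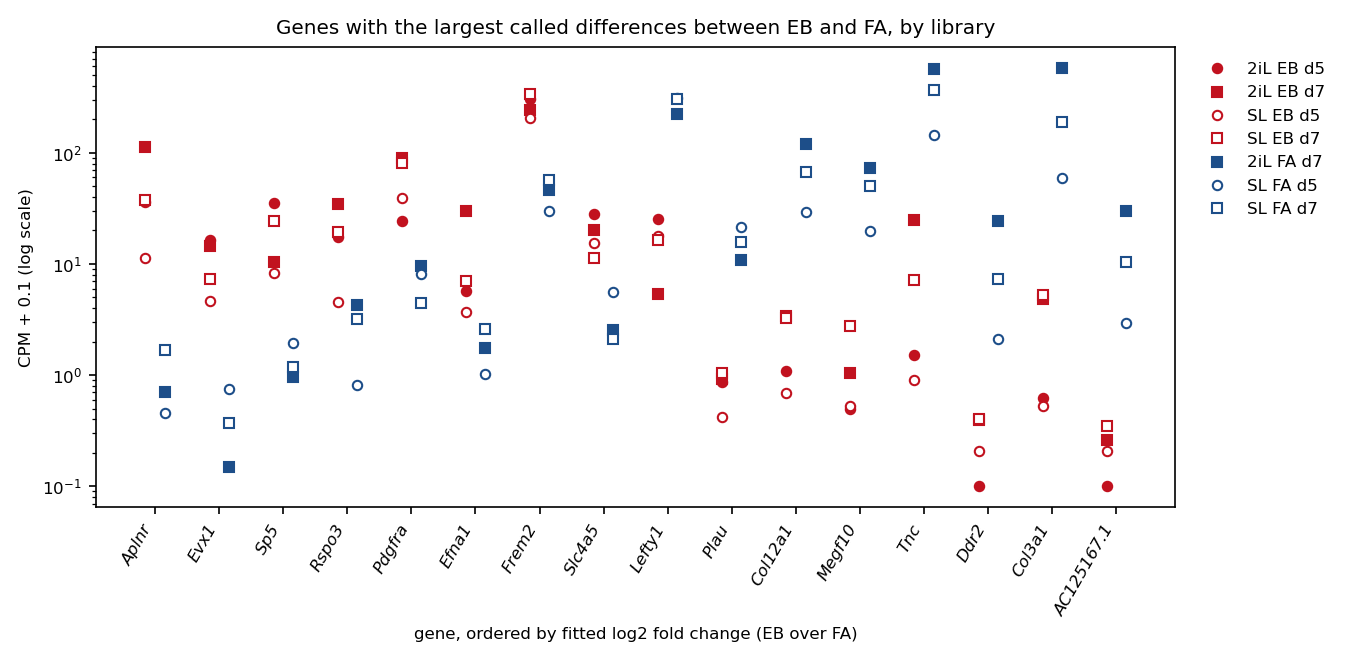
CPM plus 0.1 on a log scale (y axis) in each library for the 8 genes with the largest called rise and the 8 with the largest called fall in EB (x axis), among genes of at least 10 CPM in the higher condition whose libraries do not overlap. EB libraries are red, FA libraries blue, 2iL filled, SL open, day 5 circles and day 7 squares.

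Primitive streak genes were higher in EB. Of 24 listed genes, 21 were tested, 5 rose in EB (Mesp1, Evx1, Mixl1, Tbx6 and Eomes), none fell and 16 did not pass, and the median log2 fold change of the list was 1.12. Its libraries did not overlap for 6 members, all higher in EB. Mesp1, a factor of early cardiac and head mesoderm at chr7:79792241-79793788 on the minus strand, was at 7.31 CPM in 2iL EB day 5, 8.74 in 2iL EB day 7, 2.98 in SL EB day 5 and 2.00 in SL EB day 7. In FA it was at 0 CPM in 2iL day 7 and SL day 5 and at 0.109 in SL day 7. All EB libraries thus lay above all FA libraries, with 720 reads in EB against 2 in FA, a pooled ratio of 161 (95% exact interval 44.3 to 1329, counting error only), and adjusted p was 0.0264. Evx1, a homeobox factor of the posterior streak, was at 16.2, 14.5, 4.52 and 7.26 CPM in 2iL EB day 5, 2iL EB day 7, SL EB day 5 and SL EB day 7, and at 0.0505, 0.646 and 0.272 CPM in 2iL FA day 7, SL FA day 5 and SL FA day 7. Its log2 fold change was 5.11 ± 0.79 (SE, adjusted p = 0.0270). Values of other genes are given in this order of libraries from here on.

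Mixl1, a homeobox factor of mesendoderm, was at 77.5, 7.67, 23.3 and 17.1 CPM in EB and at 0.505, 8.40 and 0.816 CPM in FA. The libraries overlapped, since SL FA day 5 lay above 2iL EB day 7, and the fitted difference at matched day was 3.39 ± 0.62 (adjusted p = 0.0408). Eomes, a T-box factor of mesendoderm, was at 260, 54.9, 89.8 and 70.0 CPM in EB and at 14.03, 62.1 and 9.95 CPM in FA, a log2 fold change of 2.01 ± 0.40 (adjusted p = 0.0488). Again SL FA day 5 reached the range of EB, and both FA libraries of day 7 were below it. Tbx6, a factor of paraxial mesoderm, was at 1.70 to 2.86 CPM in EB and 0.353 to 0.598 CPM in FA (2.10, adjusted p = 0.0428). T was at 362, 73.4, 43.7 and 56.7 CPM in EB and at 3.94, 9.97 and 9.36 CPM in FA. Its libraries did not overlap and its log2 difference was 3.70 ± 0.80, but its adjusted p of 0.0574 missed the threshold. In undifferentiated ESCs T was at 1.53 to 4.99 CPM in the 3 2iL libraries and 0.108 CPM in the SL library. The 5 calls of the list fell to 0 without 2iL FA day 7 or SL FA day 7, to 1 without 2iL EB day 5, 2iL EB day 7 or SL FA day 5, and to 4 without either SL EB library. No member was called when starting medium and day were blocks.

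The receptors Aplnr and Pdgfra and the blood factor Tal1 were also higher in EB. Aplnr, the apelin receptor of early mesoderm, was at 35.8, 113, 11.3 and 37.6 CPM in EB and at 0.606, 0.359 and 1.58 CPM in FA. Every EB library lay above every FA library, with a log2 fold change of 6.10 ± 0.73 (adjusted p = 0.0136). Pdgfra, a receptor of mesoderm and of primitive endoderm, was at 24.4, 90.0, 39.2 and 81.6 CPM in EB and at 9.44, 8.04 and 4.35 CPM in FA (2.96 ± 0.45, adjusted p = 0.0256). It was at 96.8 to 351 CPM in the 4 N2B27 libraries of these days, above EB. Tal1, needed for blood formation, was at 0.936, 20.2, 0.850 and 5.06 CPM in EB and at 0.151, 0.215 and 0.326 CPM in FA (4.89 ± 0.94, adjusted p = 0.0441). Its day 7 EB libraries stood well above those of day 5. Tal1 kept its call without SL EB day 7 and lost it without any other library, with blocks and with starting medium added.

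Calls among later mesoderm genes were near the share over all genes. Of 30 blood and endothelium genes, 17 were tested and Tal1 was the 1 that passed, with a list median of 1.19. Kdr, the VEGF receptor of blood and vessel precursors, was at 8.45, 140, 10.4 and 30.4 CPM in EB and at 2.62, 10.6 and 4.68 CPM in FA (2.45 ± 1.19, adjusted p = 0.283). Gata1, an erythroid factor, was at 0.246 to 2.81 CPM in EB and 0.381 to 0.789 CPM in FA (adjusted p = 0.439). The embryonic globin gene Hbb-bh1 was at 0.0531 to 3.82 CPM in EB and 0 to 0.0505 CPM in FA and did not pass the filter. Of 30 cardiac and lateral mesoderm genes, 22 were tested, none rose in EB and 1, Wt1, was higher in FA (adjusted p = 0.0235), with a list median of 0.53. Tnnt2 and Myl7, contractile genes of heart muscle, stayed at or below 0.718 CPM in all 7 libraries. Hand1, a factor of extraembryonic and lateral mesoderm, was at 1.95, 365, 3.99 and 18.4 CPM in EB and at 2.78, 4.23 and 3.81 CPM in FA (adjusted p = 0.344). The summed level of the cardiac and lateral list was 51.8 to 138 CPM in 3 EB libraries, 750 CPM in 2iL EB day 7 and 64.2 to 86.6 CPM in FA, so that 1 library carried these genes.

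**Figure D3:**
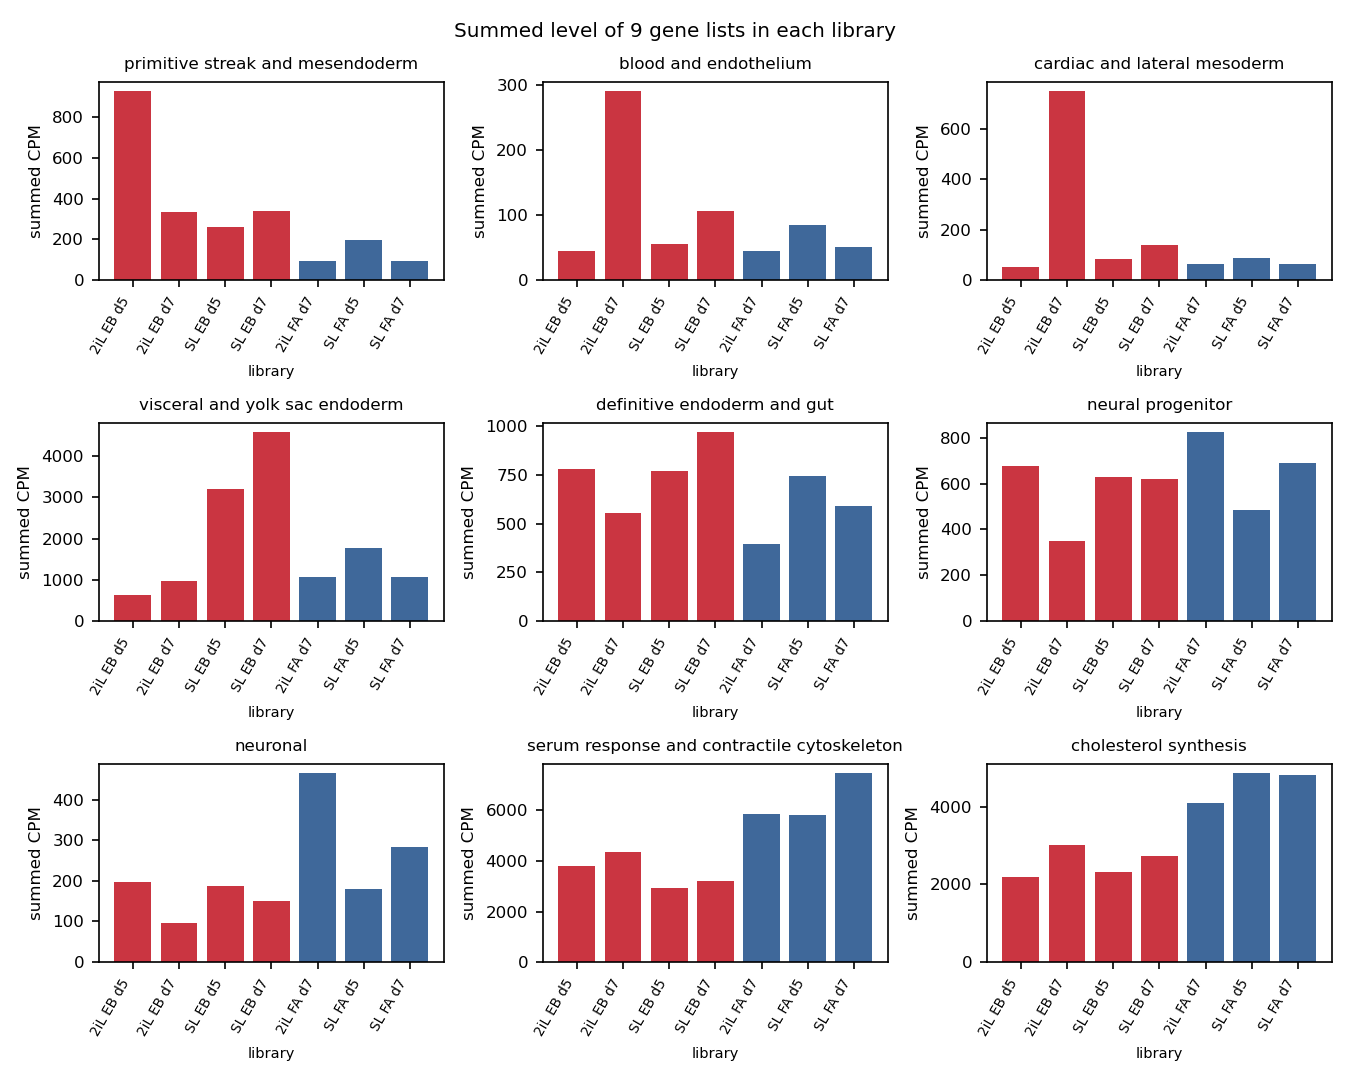
Summed CPM (y axis) of 9 gene lists in each of the 7 libraries (x axis), with EB in red and FA in blue. The streak list is highest in 2iL EB day 5, the blood and cardiac lists in 2iL EB day 7 and the yolk sac list in the SL EB libraries, while the serum response and cholesterol lists are higher in every FA library than in any EB library.

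Wnt and BMP target genes rose in EB in small numbers. Of 31 Wnt genes, 28 were tested, 2 rose in EB, none fell, and the median log2 fold change was 0.91. Sp5, a direct Wnt target, was at 35.3, 10.4, 8.18 and 24.3 CPM in EB and at 0.858, 1.87 and 1.09 CPM in FA (3.90 ± 0.63, adjusted p = 0.0295). Rspo3, a secreted enhancer of Wnt signalling, was at 17.3, 34.7, 4.41 and 19.2 CPM in EB and at 4.14, 0.718 and 3.10 CPM in FA (3.19 ± 0.56, adjusted p = 0.0368). Both genes had each EB library above each FA library, although SL EB day 5 and 2iL FA day 7 were close for Rspo3. The Wnt feedback gene Axin2 was at 66.4, 66.1, 25.9 and 78.8 CPM in EB and at 27.1, 17.2 and 16.4 CPM in FA, with an adjusted p of 0.0574. The ligand genes Wnt3, Wnt3a and Wnt8a did not pass (adjusted p of 0.380, 0.828 and 0.324), and Wnt8a was at 51.5 CPM in 2iL EB day 5, 18.004 to 37.5 CPM in FA and 2.19 to 7.44 CPM in the other EB libraries.

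Of 27 BMP genes, 26 were tested, 3 rose in EB, none fell, and the median was 1.04. Id1 and Id3 encode inhibitors of bHLH factors and are direct BMP targets. Id1 was at 32.8, 95.3, 29.8 and 53.3 CPM in EB and at 19.1, 9.76 and 11.2 CPM in FA (2.06 ± 0.29, adjusted p = 0.0227). Id3 was at 27.9, 100, 32.2 and 87.2 CPM in EB and at 23.0, 14.1 and 15.7 CPM in FA (1.801 ± 0.28, adjusted p = 0.0270). Smad1, a transducer of BMP signals, was at 45.1 to 70.3 CPM in EB and 33.0 to 38.6 CPM in FA (0.65 ± 0.12, adjusted p = 0.0431). For all 3 the EB libraries lay above FA. The ligands Bmp2, Bmp4, Bmp5 and Bmp7 did not pass (adjusted p of 0.0991 to 0.697), and Bmp4 was at 56.3 CPM in 2iL EB day 7 against 2.36 to 6.46 CPM in the other EB libraries and 4.74 to 11.1 CPM in FA. Without 2iL FA day 7 or SL FA day 7 no Wnt or BMP member was called, and without SL EB day 5 no BMP member was, while Rspo3 and Id1 were called with starting medium and day as blocks.

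Genes of the pluripotent epiblast were expressed in both conditions. Of 14 general pluripotency genes, all were tested, 2 rose in EB and none fell. The median log2 fold change was -0.34, and 6 had a higher and 8 a lower fitted level in EB. Without SL EB day 7, 1 member was called higher in EB and 4 higher in FA. With starting medium and day as blocks, none was called. Sall4, a zinc finger factor at chr2:168748332-168767943 on the minus strand, was at 492, 406, 511 and 468 CPM in EB and at 197, 255 and 197 CPM in FA (1.08 ± 0.10, adjusted p = 0.00770), and it was called in all 7 fits that left out a library. Lin28a, an RNA-binding inhibitor of let-7, was at 649, 637, 742 and 742 CPM in EB and at 445, 504 and 459 CPM in FA (0.55 ± 0.11, adjusted p = 0.0499), just inside the threshold. Pou5f1 (Oct4) was at 565, 77.0, 429 and 138 CPM in EB and at 170, 264 and 225 CPM in FA (-0.22 ± 0.42, adjusted p = 0.804). Nanog was at 270, 51.8, 113 and 75.7 CPM in EB and at 204, 90.8 and 215 CPM in FA (-0.77 ± 0.66, adjusted p = 0.548), and Sox2 was at 41.4 to 100 CPM in EB and 69.7 to 79.7 CPM in FA (0.03 ± 0.30, adjusted p = 0.959). In EB, Pou5f1 was thus high at day 5 and low at day 7 from both media, while FA lay between these levels. The sign of the fitted difference changed under other settings for Pou5f1, Sox2 and Fgf5.

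Of 15 primed epiblast genes, 1 rose in EB. Otx2, a homeobox factor of the postimplantation epiblast and forebrain, was at 124, 44.8, 127 and 83.6 CPM in EB and at 25.8, 48.1 and 24.9 CPM in FA (1.36 ± 0.21, adjusted p = 0.0272). It overlapped only because 2iL EB day 7 fell below SL FA day 5. Fgf5, the usual marker of primed epiblast, was at 99.7, 10.5, 74.1 and 35.4 CPM in EB and at 24.2, 50.5 and 28.7 CPM in FA (0.17 ± 0.43, adjusted p = 0.856). No gene of 14 naive pluripotency genes passed. The summed level of that list was 174 to 328 CPM in EB and 256 to 342 CPM in FA. In ESCs it was 4831 to 5172 CPM in 2iL and 2996 CPM in SL. Xist, the non-coding RNA of X inactivation, stayed at 0.374 to 1.43 CPM in EB and 0.303 to 0.789 CPM in FA (adjusted p = 0.506). None of the 4 other tested genes of the Xist list (Tsix, Ftx, Jpx and Rlim) passed.

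Among the 8 largest rises were also genes outside these lists. Frem2, a matrix protein of basement membranes at chr3:53513938-53657355, was at 302, 240, 206 and 338 CPM in EB and at 46.0, 30.1 and 56.4 CPM in FA (2.72 ± 0.23, adjusted p = 0.00628), and was called in all 7 fits that left out a library and with blocks. Slc4a5, a bicarbonate transporter, was at 11.3 to 27.8 CPM in EB and 2.01 to 5.45 CPM in FA (2.48, adjusted p = 0.0229). Efna1, an ephrin ligand, was at 29.9 CPM in 2iL EB day 7, 3.61 to 6.91 CPM in the other EB libraries and 0.933 to 2.502 CPM in FA (2.87, adjusted p = 0.0486). Single calls came from lists of hypoxia and germ cell genes. The glucose transporter Slc2a1 was the 1 gene of 28 tested hypoxia genes that passed, at 749, 818, 918 and 804 CPM in EB and 496, 456 and 526 CPM in FA (0.75 ± 0.12, adjusted p = 0.0292). The median of the hypoxia list was 0.07. Kit, the receptor of stem cell factor, was the 1 of 14 tested germ cell genes that passed, at 41.1 to 65.4 CPM in EB and 19.7 to 27.8 CPM in FA (1.16, adjusted p = 0.0243). The rest of that list ran mostly the other way, with a median of -0.71, 9 of 14 members with a lower fitted level in EB and 5 whose FA libraries all lay above EB. Among these the germ cell helicase Ddx4 was at 1.39 to 4.09 CPM in EB and 4.34 to 18.4 CPM in FA (adjusted p = 0.0690). Without SL EB day 7, Kit and 5 members higher in FA were called, and Kit lost its call when any other library was left out.

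Most yolk sac endoderm genes had higher levels in EBs from SL than in EBs from 2iL or in FA. Of 25 listed genes, 20 were tested and none passed, although the list had the largest median of the 27 lists, 2.64. Afp, the alpha-fetoprotein of visceral endoderm, was at 17.9, 21.1, 389 and 625 CPM in EB and at 1.41, 7.32 and 1.03 CPM in FA (6.48 ± 1.77, adjusted p = 0.0977). Ttr, the thyroid hormone carrier, was at 4.36, 5.05, 82.001 and 114 CPM in EB and at 1.51, 4.38 and 0.925 CPM in FA (adjusted p = 0.142). Apob, the main apolipoprotein of the yolk sac, was at 37.1, 45.0, 828 and 1542 CPM in EB and at 23.0, 295 and 23.1 CPM in FA (adjusted p = 0.374). The summed level of the list was 624 and 975 CPM in EBs from 2iL, 3192 and 4582 CPM in EBs from SL, and 1075 to 1779 CPM in FA. The sum is carried by a few abundant members, such as the endocytic receptor Lrp2 at 358 to 839 CPM in EB and 725 to 993 CPM in FA, while 18 of the 20 tested members had a higher fitted level in EB. With SL libraries alone, 1 member was called higher in EB. When both EB libraries from 2iL were left out, 10 were, Afp with an edgeR adjusted p of 0.0305 and Ttr with 0.0297. That setting was chosen after seeing the data. It removes the EB libraries in which most of these genes were low, so its calls give no separate support. At day 0 the summed level was 766 CPM in the SL library and 91.4 to 107 CPM in the 2iL libraries. The difference between EBs from the 2 media was not tested. Alb, the albumin gene of liver, was at 0 CPM in 6 of the libraries and 0.0531 in SL EB day 5.

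Other endoderm and ectoderm lists held calls at about the share over all genes. None of 18 definitive endoderm and gut genes passed (median 0.94), and Sox17 was at 3.23, 13.9, 9.57 and 24.8 CPM in EB and at 2.42, 3.44 and 2.61 CPM in FA (adjusted p = 0.101). Of 14 parietal endoderm genes, Pdgfra rose in EB and Nid1, which encodes a laminin linker, was higher in FA, at 125 to 150 CPM against 15.8 to 59.6 CPM in EB (adjusted p = 0.0350). None of 24 tested neural progenitor genes and none of 19 tested neuronal genes passed, with medians of -0.11 and -0.70. Of the neuronal genes, 16 had a lower and 3 a higher fitted level in EB. DESeq2 called 5 of them higher in FA and none higher in EB. Without SL EB day 7, 3 neural progenitor genes were called higher in FA and none higher in EB. Sox1, the earliest neural marker, was at 1.16, 14.21, 6.16 and 45.9 CPM in EB and at 68.5, 18.5 and 52.1 CPM in FA (adjusted p = 0.208). Pax6 was at 0.960 to 12.3 CPM in EB and 3.16 to 21.96 CPM in FA, and Tubb3, a tubulin of neurons, was at 5.05 to 22.5 CPM in EB and 18.4 to 61.9 CPM in FA (adjusted p of 0.230 and 0.248). Of 11 tested trophoblast genes Eomes passed, and of 15 neural crest genes Tfap2b passed, at 0.0492, 1.496, 0.0531 and 3.56 CPM in EB and 30.6, 0.0718 and 18.2 CPM in FA (-3.04 ± 0.53, adjusted p = 0.0367). Since RNA was taken from whole cultures, fewer cells of a type and less RNA per cell cannot be told apart for any of these genes.

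**Figure D4:**
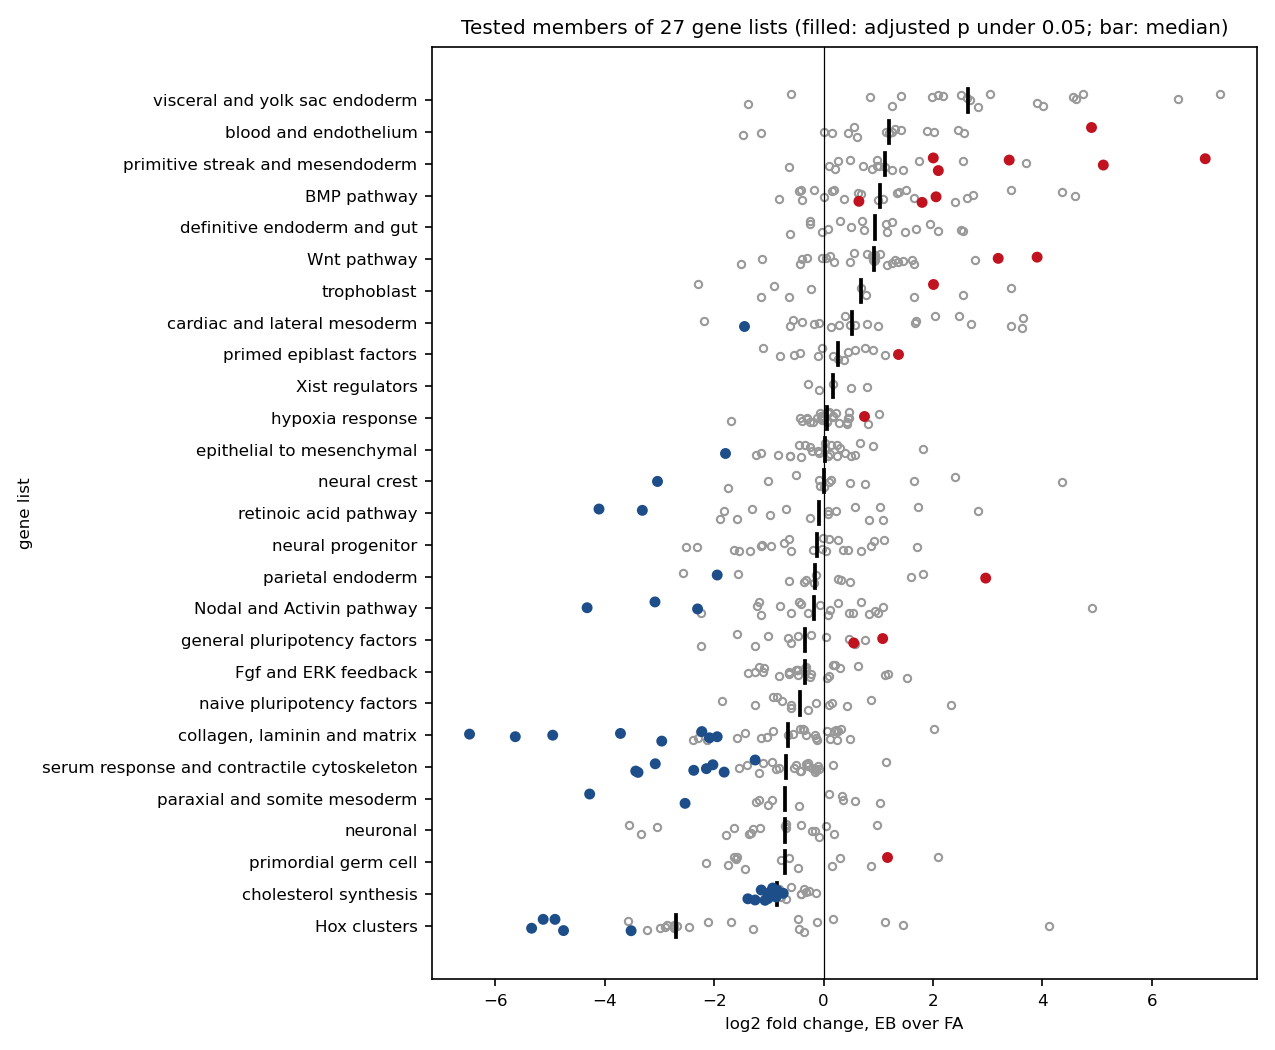
Log2 fold change of EB over FA (x axis) for the tested members of 27 gene lists (y axis, ordered by median). Filled points passed an adjusted p of 0.05 (red higher in EB, blue higher in FA), open points did not, and black bars are medians, from -2.70 for the Hox clusters to 2.64 for visceral and yolk sac endoderm.

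The Nodal feedback inhibitors Lefty1 and Lefty2 were higher in FA, the medium that holds Activin, while other members of the pathway lay on either side. Of 27 listed genes, 24 were tested, 3 were higher in FA, none was higher in EB, and the median was -0.17. The libraries did not overlap for 5 members with EB above FA and 7 with FA above EB, and DESeq2 called 6 in each direction. Lefty1 (chr1:180935022-180938400, plus strand) was at 25.3, 5.29, 17.9 and 16.3 CPM in EB and at 223, 313 and 304 CPM in FA. The lowest FA library stood well above the highest EB library, the log2 fold change was -4.32 ± 0.42 (adjusted p = 0.00842), and the gene was called in all 7 fits that left out a library and with blocks. Lefty2 was at 24.7, 8.04, 14.6 and 20.9 CPM in EB and at 43.1, 148 and 61.5 CPM in FA (-2.30 ± 0.39, adjusted p = 0.0349). These neighbouring genes are close copies, so reads may be divided between them with some error. Inhbb, a subunit of Activin B, was at 0.0801 to 0.301 CPM in EB and 0.979 to 2.22 CPM in FA (-3.08, adjusted p = 0.0358). The ligand Nodal was at 72.0, 9.59, 25.9 and 20.4 CPM in EB and at 28.9, 59.5 and 37.0 CPM in FA (-0.81 ± 0.43, adjusted p = 0.328). Gdf3, a related ligand, was at 0.801 to 4.51 CPM in EB and 8.32 to 17.2 CPM in FA with an adjusted p of 0.0567. The Nodal cofactor Cfc1 was at 1.59 to 50.1 CPM in EB and 0.287 to 0.925 CPM in FA, with an adjusted p of 0.0546. The receptors Acvr1b and Acvr2b and the transducer Smad4 had each EB library above each FA library, with adjusted p of 0.0586, 0.0680 and 0.0726. Lefty1 alone was called without 2iL EB day 5, SL EB day 5 or any 1 FA library, and without SL EB day 7 there were 4 calls in each direction.

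Genes of Fgf signalling and ERK feedback did not pass in either direction, although Fgf2 was added to FA. Of 28 listed genes 27 were tested, with a median log2 fold change of -0.35. Dusp6, a phosphatase that limits ERK, was at 244, 70.3, 105 and 128 CPM in EB and at 200, 388 and 253 CPM in FA (adjusted p = 0.0980). Etv4, an ETS factor downstream of ERK, was at 17.9 to 35.8 CPM in EB and 31.4 to 71.0 CPM in FA (adjusted p = 0.0635). Spry4 was at 13.2 to 49.7 CPM in EB and 29.3 to 77.2 CPM in FA (adjusted p = 0.400). DESeq2 called 1 gene of this list higher in EB and 4 higher in FA.

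Of the 8 largest called falls in EB among genes of at least 10 CPM without overlap, 3 were matrix genes (Col3a1, Tnc and Col12a1). Of 37 matrix genes, 35 were tested and 8 were higher in FA (Col3a1, Tnc, Col12a1, Lox, Col14a1, Col5a2, Col1a2 and Nid1), none was higher in EB, and the median was -0.64. Summed over all 37 genes, the level was 2361 to 4990 CPM in EB and 4573 to 5571 CPM in FA. In the N2B27 libraries of these days the sum was higher, at 9060 to 31696 CPM. Col3a1, the fibrillar collagen III of loose connective tissue (chr1:45311538-45349706, plus strand), was at 0.517, 4.78, 0.425 and 5.16 CPM in EB and at 580, 59.1 and 188 CPM in FA (-6.47 ± 0.44, adjusted p = 0.00564). In both conditions its day 7 libraries were above those of day 5, and 2iL FA day 7 was the highest. The annotated microRNA gene AC125167.1 (chr1:45311673-45311813) lies within Col3a1 and moved with it (-6.52, adjusted p = 0.00984), and reads of the 2 genes cannot be told apart here. Tnc, an adhesion-modulating matrix protein, was at 1.40, 24.5, 0.797 and 7.11 CPM in EB and at 568, 145 and 368 CPM in FA (-5.64 ± 0.62, adjusted p = 0.0113). Col12a1, a fibril-associated collagen, was at 0.985, 3.34, 0.585 and 3.16 CPM in EB and at 120, 29.3 and 66.8 CPM in FA (-4.95 ± 0.27, adjusted p = 0.00228). Col3a1 and Col12a1 were called in all 7 fits that left out a library and with blocks. Of the 8 matrix calls, 2 were left without SL FA day 5 and with blocks, 3 without SL FA day 7, and 4 without 2iL EB day 5, SL EB day 5 or 2iL FA day 7.

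Other called genes with large falls in EB included receptors and a protease. Ddr2, a receptor tyrosine kinase for fibrillar collagen, was at 0, 0.294, 0.106 and 0.301 CPM in EB and at 24.4, 2.01 and 7.18 CPM in FA (-5.69 ± 0.69, adjusted p = 0.0139). Megf10, an engulfment receptor, was at 0.394, 0.935, 0.425 and 2.65 CPM in EB and at 72.5, 19.5 and 50.1 CPM in FA (-5.30 ± 0.38, adjusted p = 0.00564). Plau, the urokinase plasminogen activator, was at 0.319 to 0.952 CPM in EB and 10.8 to 21.5 CPM in FA (-4.44 ± 0.40, adjusted p = 0.00628). C1qtnf3, a secreted C1q-like protein, had 0 reads in the 4 EB libraries and 22.5, 0.933 and 5.22 CPM in FA (adjusted p = 0.0439). Basement membrane genes did not share this direction as a group, with Col4a1 at 128, 443, 472 and 860 CPM in EB and 221, 555 and 341 CPM in FA (adjusted p = 0.806) and Lama1 at 41.7 to 348 CPM in EB and 122 to 169 CPM in FA (adjusted p = 0.711). Vim, the mesenchymal intermediate filament, was the 1 of 27 tested genes of epithelial to mesenchymal change that passed, at 130, 304, 67.8 and 226 CPM in EB and 658, 538 and 687 CPM in FA (-1.801 ± 0.30, adjusted p = 0.0332). That list kept 1 call higher in FA without 2iL EB day 7 or SL EB day 5. It had none without any other library, with blocks or with starting medium added. Without SL EB day 7, 1 member was called higher in EB.

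Serum response and contractile genes were higher in FA and not in the condition that received serum. Of 33 listed genes, 32 were tested and 8 were higher in FA (among them Thbs1, Acta2, Lmod1, Ctgf, Tagln, Cyr61 and Vcl), none was higher in EB, and the median was -0.68. The libraries did not overlap for 15 tested members, all higher in FA. The summed level of the list was 2936 to 4346 CPM in EB and 5834 to 7480 CPM in FA. It was 2905 to 4545 CPM in the N2B27 libraries of these days, from cells also grown attached and without serum. Thbs1, the adhesive glycoprotein thrombospondin (chr2:118111876-118127133, plus strand), was at 29.2, 54.2, 20.8 and 63.4 CPM in EB and at 472, 309 and 635 CPM in FA (-3.39 ± 0.18, adjusted p = 0.00228). Ctgf, a matricellular target of YAP, was at 26.8, 23.3, 25.3 and 26.6 CPM in EB and at 99.9, 88.4 and 161 CPM in FA (-2.14, adjusted p = 0.00870). Both genes were steady among the EB libraries relative to the gap between conditions, and both were called in all 7 fits that left out a library and with blocks.

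Acta2 was at 3.99, 63.2, 3.14 and 25.4 CPM in EB and at 169, 94.3 and 172 CPM in FA (-3.08 ± 0.61, adjusted p = 0.0476), with day 7 above day 5 in EB. Vcl, whose upstream window holds a CArG box and CATTCC, was at 286, 191, 179 and 171 CPM in EB and at 414, 484 and 528 CPM in FA (-1.25, adjusted p = 0.0252). Fos and Egr1, immediate early genes that respond within minutes to fresh serum, did not pass. Fos was at 2.13 to 12.3 CPM in EB and 6.21 to 9.84 CPM in FA (adjusted p = 0.752). Egr1 was at 5.26 to 11.4 CPM in EB and 9.94 to 14.8 CPM in FA (adjusted p = 0.109). Of the 8 calls, 2 were left without SL EB day 5, SL FA day 5 or SL FA day 7, 3 without 2iL EB day 5 and 4 without 2iL FA day 7, and 2 with starting medium and day as blocks.

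Of the cholesterol synthesis genes, 14 of 25 were higher in FA, although these calls depended on single libraries. All 25 were tested and had a lower fitted level in EB, 11 did not pass, and the median log2 fold change was -0.85. The libraries did not overlap for 18 of the 25, all higher in FA. Hmgcs1, an early enzyme of the pathway, was at 367, 510, 370 and 428 CPM in EB and at 732, 741 and 870 CPM in FA (-0.87, adjusted p = 0.0222). Fdps, which makes farnesyl diphosphate, was at 111, 134, 123 and 130 CPM in EB and at 222, 306 and 294 CPM in FA (-1.14 ± 0.14, adjusted p = 0.0150). For these enzymes each FA library stood above each EB library, and the spread within a condition was small.

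Later enzymes followed the same order. Sqle, which forms squalene epoxide, was at 115 to 146 CPM in EB and 235 to 283 CPM in FA (-0.93, adjusted p = 0.0172), and Msmo1, a sterol demethylase, was at 85.02 to 158 CPM in EB and 245 to 296 CPM in FA (-1.25 ± 0.18, adjusted p = 0.0229). Insig1, which holds back sterol sensing, passed as well (-0.85, adjusted p = 0.0439), and Srebf2, the factor that drives these genes, did not (143 to 204 CPM in EB and 191 to 263 CPM in FA, adjusted p = 0.206). The summed level of the list was 2184 to 3013 CPM in EB, 4102 to 4863 CPM in FA and 4176 to 4579 CPM in the N2B27 libraries of these days. In ESCs it was 2407 to 2760 CPM in 2iL and 1475 CPM in SL. The calls fell from 14 to 0 without SL EB day 5, SL FA day 5 or SL FA day 7, and also with starting medium and day as blocks, to 2 without 2iL EB day 5 and to 7 without 2iL FA day 7.

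Hox genes, which pattern the body axis, were low in most EB libraries and higher in FA. Of 39 Hox genes 26 were tested, 5 were higher in FA (Hoxa2, Hoxa3, Hoxa4, Hoxa5 and Hoxb9), none was higher in EB, and the median was -2.70, the lowest of the 27 lists. The libraries did not overlap for 14 tested genes, all higher in FA. Hoxa5 (chr6:52201754-52204587, minus strand) was at 0.0985, 0.107, 0.159 and 0.1002 CPM in EB and at 5.75, 5.45 and 2.67 CPM in FA (-5.34 ± 0.43, adjusted p = 0.00628), and it was called in all 7 fits that left out a library and with blocks. Hoxa2 (chr6:52162417-52164831) was at 0.0985, 0.321, 0 and 0.401 CPM in EB and at 12.9, 4.09 and 6.74 CPM in FA (-5.13 ± 0.53, adjusted p = 0.00984). Hoxa3 was at 0.0492 to 0.200 CPM in EB and 2.87 to 3.63 CPM in FA (-4.75, adjusted p = 0.00650). Most of these EB levels were within a few reads per library, so the folds are loosely set.

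The clusters differed in how the 2iL EB library of day 7 behaved. Among tested genes, 8 of 9 in the Hoxa cluster, 8 of 8 in Hoxb, 5 of 5 in Hoxc and 1 of 4 in Hoxd had a lower fitted level in EB. Summed over the Hoxd cluster, 2iL EB day 7 was at 46.9 CPM, the other EB libraries were at 1.22 to 4.71 CPM and FA was at 4.24 to 5.603 CPM. Over Hoxa, 2iL EB day 7 was at 18.99 CPM against 34.97 to 67.9 CPM in FA. Hoxd1 was at 21.1 CPM in 2iL EB day 7 and at most 1.55 CPM in every other library (adjusted p = 0.112). Over all Hox genes the day 5 EBs were at 5.00 and 6.43 CPM, SL EB day 7 at 18.2 CPM, 2iL EB day 7 at 101 CPM and FA at 77.1 to 119 CPM, against 70.7 to 79.4 CPM in 2iL ESCs and 16.1 CPM in SL ESCs. Without SL FA day 5, 1 Hox gene was called, 9 were without 2iL EB day 7, and 3 to 5 were without any other library, with 1 of the 5 without SL EB day 7 higher in EB.

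**Figure D5:**
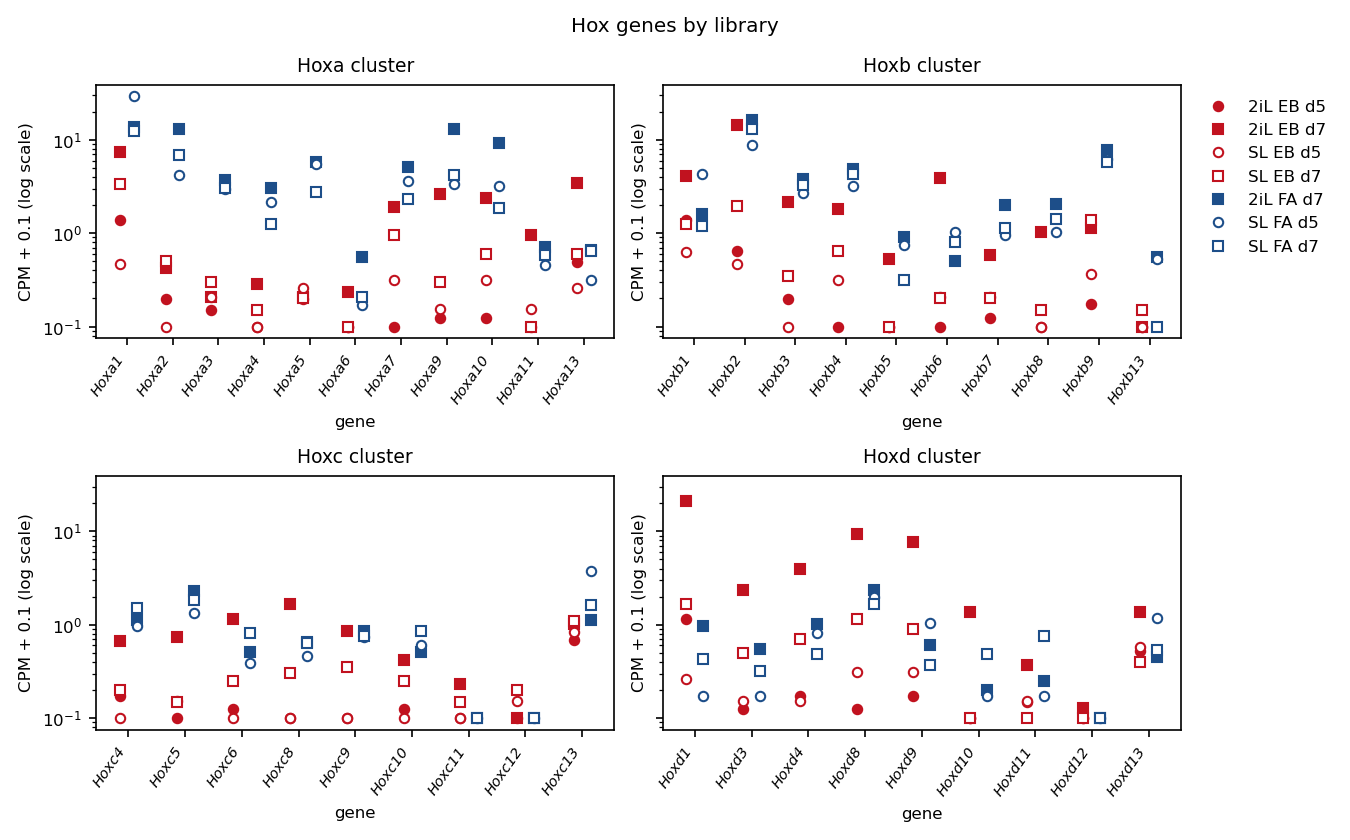
CPM plus 0.1 on a log scale (y axis) of the Hox genes in each library, with 1 panel per cluster and genes in order of paralogue number (x axis). EB is red, FA blue, 2iL filled, SL open, day 5 circles and day 7 squares. In the Hoxa panel FA lies above EB from Hoxa2 to Hoxa5, and in the Hoxd panel 2iL EB day 7 lies above all other libraries for Hoxd1, Hoxd8 and Hoxd9.

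Paraxial mesoderm and retinoic acid genes gave a pair of calls each. Meox1, a somite factor, was at 0.0492 to 0.751 CPM in EB and 2.94 to 6.06 CPM in FA (-4.28, adjusted p = 0.0214), and Tcf15, a factor of somites and of primed cells, was at 0.775 to 1.86 CPM in EB and 3.81 to 11.1 CPM in FA (-2.53, adjusted p = 0.0115). They were 2 of 12 tested members. Crabp1, a retinoic acid binding protein, was at 1.23, 36.7, 2.34 and 19.2 CPM in EB and at 313, 11.3 and 366 CPM in FA (-3.31 ± 0.33, adjusted p = 0.00969). It overlapped because SL FA day 5 lay below the EB libraries of day 7, but at each day and medium with both libraries FA was higher. Stra8, a retinoic acid target of the germ line, was at 0.0246 to 0.266 CPM in EB and 0.598 to 5.02 CPM in FA (-4.11, adjusted p = 0.0491). The receptors Rara and Rarg did not pass (adjusted p of 0.797 and 0.884), and the list median was -0.08 over 18 tested genes.

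Day 7 was compared with day 5 over both conditions. In this fit 11 genes (0.0752%) passed, 10 higher at day 7 and 1 lower. Crabp1 rose by 4.42 ± 0.38 on the log2 scale (adjusted p = 0.0259), Tmem132c, a transmembrane protein, by 4.69 ± 0.48 and Tfap2b, a neural crest factor, by 6.66 ± 0.69 (both adjusted p = 0.0466). Tmem132c was at 0.813 and 0.266 CPM in the day 5 EBs, 3.30 CPM in day 5 FA, 16.1 and 29.7 CPM in the day 7 EBs and 43.6 to 60.9 CPM in day 7 FA. Zscan10, a zinc finger factor of ESCs, fell by 1.18 ± 0.13 (adjusted p = 0.0497), from 57.8 to 91.9 CPM at day 5 to 28.3 to 40.7 CPM at day 7. No gene was called without 2iL EB day 5, SL EB day 5 or 2iL FA day 7, and 40 genes were called without SL FA day 5.

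A test of whether the change from day 5 to day 7 differed between EB and FA found no gene at the threshold. In this edgeR fit 1355 genes (9.26%) had an unadjusted p under 0.05, the lowest adjusted p was 0.357, and DESeq2 called 212 genes. FA has 1 library of day 5, so its day change rests on that library. The smallest p was that of Cyp26a1, which degrades retinoic acid. It was at 34.4 and 47.6 CPM in EB of day 5 and 73.9 and 71.0 CPM in EB of day 7, and at 82.2 CPM in FA of day 5 and 13.7 and 15.9 CPM in FA of day 7 (adjusted p = 0.357). Zic5 was at 167 and 149 CPM in EB of day 5 and 52.4 and 55.7 CPM in EB of day 7, and at 69.8 CPM in FA of day 5 and 84.6 and 88.3 CPM in FA of day 7 (adjusted p = 0.366). Myb was at 35.7 and 43.3 CPM in EB of day 5, 8.01 and 7.76 CPM in EB of day 7 and 15.9 to 25.4 CPM in FA (adjusted p = 0.366). In each of the 3 the EB libraries moved one way, and the FA libraries of day 7 lay on the other side of the FA library of day 5.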

How the data were processed

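Strand-specific RNA-seq of ribosomal RNA-depleted total RNA was used. The authors trimmed reads (TrimGalore), aligned them to GRCm38/mm10 (TopHat2 with Ensembl annotation), assigned them to genes by strand (featureCounts) and deposited raw counts. The DESeq2 normalization they describe is not in these counts. Here TMM factors, CPM and all tests were computed with edgeR 4.0.16 in R 4.3.3, and DESeq2 1.42.0 was an alternative. The model was a quasi-likelihood fit of day and condition to 7 libraries with edgeR's filterByExpr filter by condition and Benjamini-Hochberg adjustment over all tested genes. The script was tested on simulated data. Standard errors come from the fold change and its F statistic.

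Groups come from the sample titles. Levels in N2B27 and day 0 libraries were scaled in a separate set of 15 libraries and are for orientation. Genes of the 27 lists matched 631 of 631 symbols. Gene positions are from GENCODE release M21 on GRCm38, upstream sequences from RefSeq. Named genes are the 8 largest rises and falls among called genes of at least 10 CPM with no overlap and no Gm or Rik name, up to 3 called members per list and direction, a fixed set of markers, and the 3 largest changes (or smallest p) of the day fits; other genes are list members whose values a count turns on, and C1qtnf3 and the genes of the other observations, chosen after their values were seen. The members and lists were chosen with earlier results of these data known.

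Alternatives were DESeq2, no filter, an added term for starting medium, a block of starting medium and day, no day term, SL or day 7 libraries alone, a spread estimated over 11 libraries, a test against a 2-fold change and leaving out each library. Intervals and floors cover counting error only. The 435 genes without a symbol held at most 0.00122% of reads and stayed in the fits. Some called list members are counted but not reported by name here.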

Additional observations from a re-analysis of the deposited data

Results flagged for a closer look

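For 7 of the 73 values examined, 1 of the 4 EB libraries stood apart from the other 3 by more than Dixon's 95% critical value. Chance passes it in about 1 of 20 groups of like samples. The EB libraries differ in day and starting medium by design, so this rate does not apply and the flags are descriptive.

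The library 2iL EB day 5 was the highest for T, at 362 CPM, and for Eomes, at 260 CPM. The library 2iL EB day 7 was the highest for Kdr, at 140 CPM, Efna1, at 29.9 CPM, Hbb-bh1, at 3.82 CPM, and Tnnt2, at 0.481 CPM. SL EB day 5 was the highest for Hoxa5, at 0.159 CPM, a level of about 3 reads.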

How the results depend on the processing

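How many genes were called depended on the fit. For EB against FA, 492 genes were called, against 1667 with DESeq2, 894 with the spread of 11 libraries, 870 without the filter, 238 with starting medium added, 219 without the day term, 134 without both EB libraries from 2iL, 38 in a test against a 2-fold change, 28 with SL libraries alone and 0 with day 7 libraries alone. Leaving out 1 library gave 58 to 600 genes. A replicate block of starting medium and day gave 24 genes. EB and FA libraries of the same medium and day were compared by their deviations from the condition means. These correlated at 0.23 (2iL day 7), 0.38 (SL day 5) and -0.04 (SL day 7). Residuals after day and condition correlated at -0.22, -0.33 and -0.16 in the same order. By deviations, not every library correlated best with its own partner, so the pairing rests on shared medium and day alone. All 492 genes were also called by DESeq2.

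For day 7 against day 5, 11 genes were called, against 1005 with DESeq2, 289 without the filter, 4 with starting medium added and 0 to 40 without 1 library. For the difference in day change, 0 genes were called, against 212 with DESeq2, 5 without the filter and 0 to 2 without 1 library; the fit without SL FA day 5 could not be made.

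The sign reversed for 3 uncalled genes. Pou5f1 was at 0.46 without the day term, 0.00076 with SL libraries alone, 0.24 with the spread of 11 libraries, 0.0257 without both EB libraries from 2iL, and -0.90 to 0.20 without 1 library, positive without SL FA day 7 (0.048) or 2iL EB day 7. Sox2 was at -0.14 with day 7 libraries, -0.0052 with the spread of 11 libraries, and -0.30 to 0.33 without 1 library, negative without SL EB day 5 (-0.075), SL EB day 7 or SL FA day 5 (-0.16). Fgf5 was at -0.098 with the replicate block, -0.21 with day 7 libraries, and -0.26 to 0.60 without 1 library, negative without SL EB day 7 or SL FA day 5 (-0.23). The cause was not tested. Depth limits genes under about 0.2 CPM, such as Hox genes in EB.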

Other observations

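The genes of this section were chosen after their values were seen, so their direction was fixed by the choice and says nothing about a pathway. Scd2, a stearoyl-CoA desaturase, was at 630, 1268, 533 and 1062 CPM in EB and at 2603, 2099 and 2272 CPM in FA (log2 fold change -1.39, edgeR adjusted p = 0.0220). The fatty acid genes Scd1, Fads1, Fads2, Elovl6, Acaca, Acly and Srebf1 were called in the same direction, by -1.26 to -0.57, and Fads1 was called in all 7 fits that left out a library. Like the cholesterol genes, Scd2 was at 2028 to 2374 CPM in the N2B27 libraries of these days, near FA.

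Cdkn2a, which encodes cell cycle inhibitors, was at 1.13, 0.721, 1.86 and 2.75 CPM in EB and at 24.4, 12.9 and 15.1 CPM in FA (-3.38, edgeR adjusted p = 0.0222), and its neighbour Cdkn2b was at 0.468 to 1.30 CPM in EB and 7.32 to 11.3 CPM in FA (-3.48, adjusted p = 0.0113). Stag3, a cohesin subunit of meiosis, was at 19.5 to 24.9 CPM in EB and 66.1 to 72.8 CPM in FA (-1.57, adjusted p = 0.00564), and the epidermal growth factor receptor Egfr was at 9.99 to 18.8 CPM in EB and 53.0 to 64.1 CPM in FA (-2.04, adjusted p = 0.00628).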
